A study of Mus musculus with 6 samples.

Results

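The forearm bone of wild-type newborn mice is described here by the level of each named gene, by the tissue each gene marks, and by how far 3 samples of this bone differed from each other. The 3 arrays labelled wild-type were used, of 6 arrays in the series. Each held total RNA of forearm bone, the radius and ulna, taken from newborn 129sv mice. The other 3 arrays came from littermates that carry the del175k mutation of Tnni2, and their values were not used for any level given here. Members were chosen by genotype label alone. Genes were then ranked by the mean log2 intensity over the 3 arrays, with the brightest probe set standing for a gene that has several. Exactly 1 gene symbol was listed for 6398 of 8997 probe sets, which gave 5780 named genes. Whether an array stands for 1 animal or a pool is not given in the labels, so its spread may be partly technical.

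A newborn long bone is a mixture of tissues. Chondrocytes of the growth plate divide, secrete a matrix of type II collagen and aggrecan, enlarge and are then replaced by bone, which osteoblasts build from type I collagen and osteoclasts resorb. The dissected bone also carries periosteum, tendon, attached muscle, vessels and marrow, and sometimes fragments of skin. In such bulk RNA, fewer cells of a type and less RNA per cell cannot be told apart.

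Intensity is the brightness of a probe set on a linear scale. Probe sets respond differently to equal amounts of RNA, and none of the values is per transcript length, so ranks describe array signal and not copies per cell. The median intensity of the named genes was 33.4 on the array of replicate 1, 41.9 on that of replicate 2 and 41.8 on that of replicate 3. Replicate 1 was thus the dimmest array, with 901 named genes under an intensity of 20, against 272 and 312. Every probe set in the table reached 20 on at least 3 of the 6 arrays, so genes dim in both genotypes are not analysed here, and 44 named genes were under 20 on all wild-type arrays. Across named genes the log2 values of replicates 2 and 3 had a Pearson correlation of 0.949, and replicate 1 was at 0.920 and 0.926 with them. These describe pairs of arrays, and genes are not independent replicates. Of the brightest 100 genes of each array, 78 were shared by all 3.

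The signal was concentrated in few genes. The median gene lay at a geometric mean intensity of 38.4, and 3305 of the 5780 genes lay between 20 and 50. At the other end, 31 genes reached 1000 and 285 lay between 200 and 1000. The brightest 25 genes gave 16.8% of the summed intensity of all named genes, the brightest 100 gave 27.8% and the brightest 300 gave 41.2%. Many of the brightest probe sets are unnamed or carry several symbols. Of the 50 brightest probe sets, 10 had 1 symbol, 17 had several and 23 had none, so the ranking covers only what could be named.

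**Figure D1:**
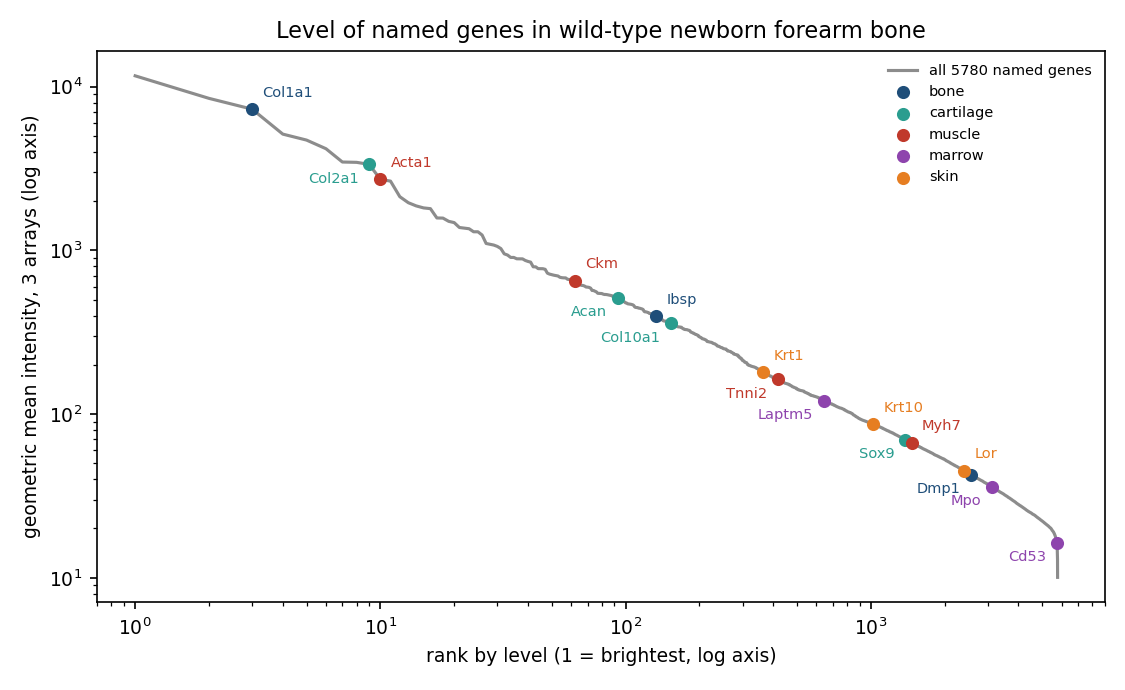
Geometric mean intensity over the 3 wild-type arrays (log axis) against rank (log axis) for the 5780 named genes, with marker genes of 5 tissues as coloured points. Col1a1 at rank 3, Col2a1 at rank 9 and Acta1 at rank 10 put bone, cartilage and muscle near the top, while the marrow markers lie far to the right.

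Type I collagen led the protein-coding genes. Col1a1, the α1 chain of the collagen that forms bone, tendon and dermis, was at 6552, 7807 and 7552 on replicates 1 to 3 (mean 7304 ± 663, SD, n = 3), rank 3. Col1a2, the α2 chain, was at 4399, 5676 and 5404, rank 4. The highest array was 1.19-fold the lowest for Col1a1 and 1.29-fold for Col1a2, so both chains were bright in every sample.

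Cartilage and muscle came next. Col2a1, the main collagen of cartilage, was at 2539.7, 3701 and 4002 (mean 3415 ± 772, SD, n = 3), rank 9. Acta1, skeletal muscle actin, was at 1955, 2835 and 3614 (mean 2801 ± 830, SD, n = 3), rank 10. Sparc, a collagen-binding protein abundant in bone matrix, was at 2099.9, 2877 and 3072. In all 3 genes replicate 1 was the lowest array, as it was for the array median. Genes prominent in fibroblasts and other mesenchymal cells were also among the brightest 25. They were the type III collagen gene Col3a1 (mean 1813), the growth factor gene Igf2 (mean 1619.5), the intermediate filament gene Vim (mean 1328) and the small proteoglycan gene Bgn (mean 1326).

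The rest of the brightest 25 were genes that every cell uses. Small structural and catalytic RNAs were Rn7sk (mean 8485), a regulator of transcription elongation, Rpph1 (mean 4722) and Rmrp (mean 1871), the RNA parts of RNases P and MRP, and Rny3 (mean 4190.1), a Y RNA. Translation was represented by Eef1a1 (mean 3498), Eef2 (mean 1402), Rplp0 (mean 2135), Rpl10, Rps2, Rplp1, Rps18 and Rps6. Actb, cytoplasmic actin, was at 2853, 3733 and 3903. The histone genes H1f5 (mean 1839.6) and H4c4 (mean 1552) completed the set. Histone genes, ribosomal protein genes and actin genes have near-identical copies, so their probe sets may take signal from relatives.

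The probe set at rank 1 is listed as Baiap2l1, at 11508, 10501 and 13060. The RefSeq records listed for it are those of ribosomal RNA and its precursor, so this value should not be read as the level of the Baiap2l1 protein-coding transcript. Other names also depend on the choice of probe set. The brightest probe set was over 4-fold the next in 15 of the 327 genes with several, among them Hk1, a hexokinase, at 716 against 30.8, and Myo18b, a myosin, at 664 against 89.6.

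Gene lists for bone, cartilage, connective tissue, muscle, marrow, skin, vessels, fat and nerve, and for functions that all cells share, were used to read the ranking by tissue. Of 35 lists, 30 had at least 3 measured genes, and in 23 of these 30 the median lay above that of all named genes. Of the brightest 100 genes, 63 were in a list. A gene of a list that is not measured may have been removed by the level filter or carry several symbols, and is not analysed here. The lists of sex-linked genes and of genes of other organs had 0 measured members.

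The connective tissue list was the brightest of the tissues, with a median of 249.5 over 37 genes. It had 10 genes among the brightest 100 (27.0%, against 1.73% of all named genes). Some of its genes are made by many cells, and Vim is in the cytoskeleton list too. The 2 measured genes of the nerve list, Pmp22 and Ncam1, had a median of 154, but neither is limited to nerve and 2 genes are too few for a list median. Among the others cartilage followed at 86.8 over 41 genes, with 5 among the brightest 100. Muscle was at 77.6 over 70 genes with 5, and bone at 73.1 over 44 genes with 4. This order depends on which lists are joined in a tissue. Muscle joined fast-fibre genes at 177 with slow-fibre genes at 51.1 and shared genes at 66.2. Bone joined osteoblast genes at 126 with osteocyte genes at 42.7 and osteoclast genes at 50.6. Vessels were at 43.8 and skin at 41.0, close to the median of all named genes, 38.4. Marrow at 35.0 over 41 genes and fat at 26.7 over 6 genes lay under it. The skin value depended on the arrays used. The median of its keratinocyte list was 0.23 above that of all named genes on the log2 scale. It was 1.47 without replicate 3, -0.45 without replicate 1 and -0.20 without replicate 2. Vessels, skin, marrow and fat had 0 genes among the brightest 100. Functions shared by all cells were at 125 over 221 genes, with 39 among the brightest 100.

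**Figure D2:**
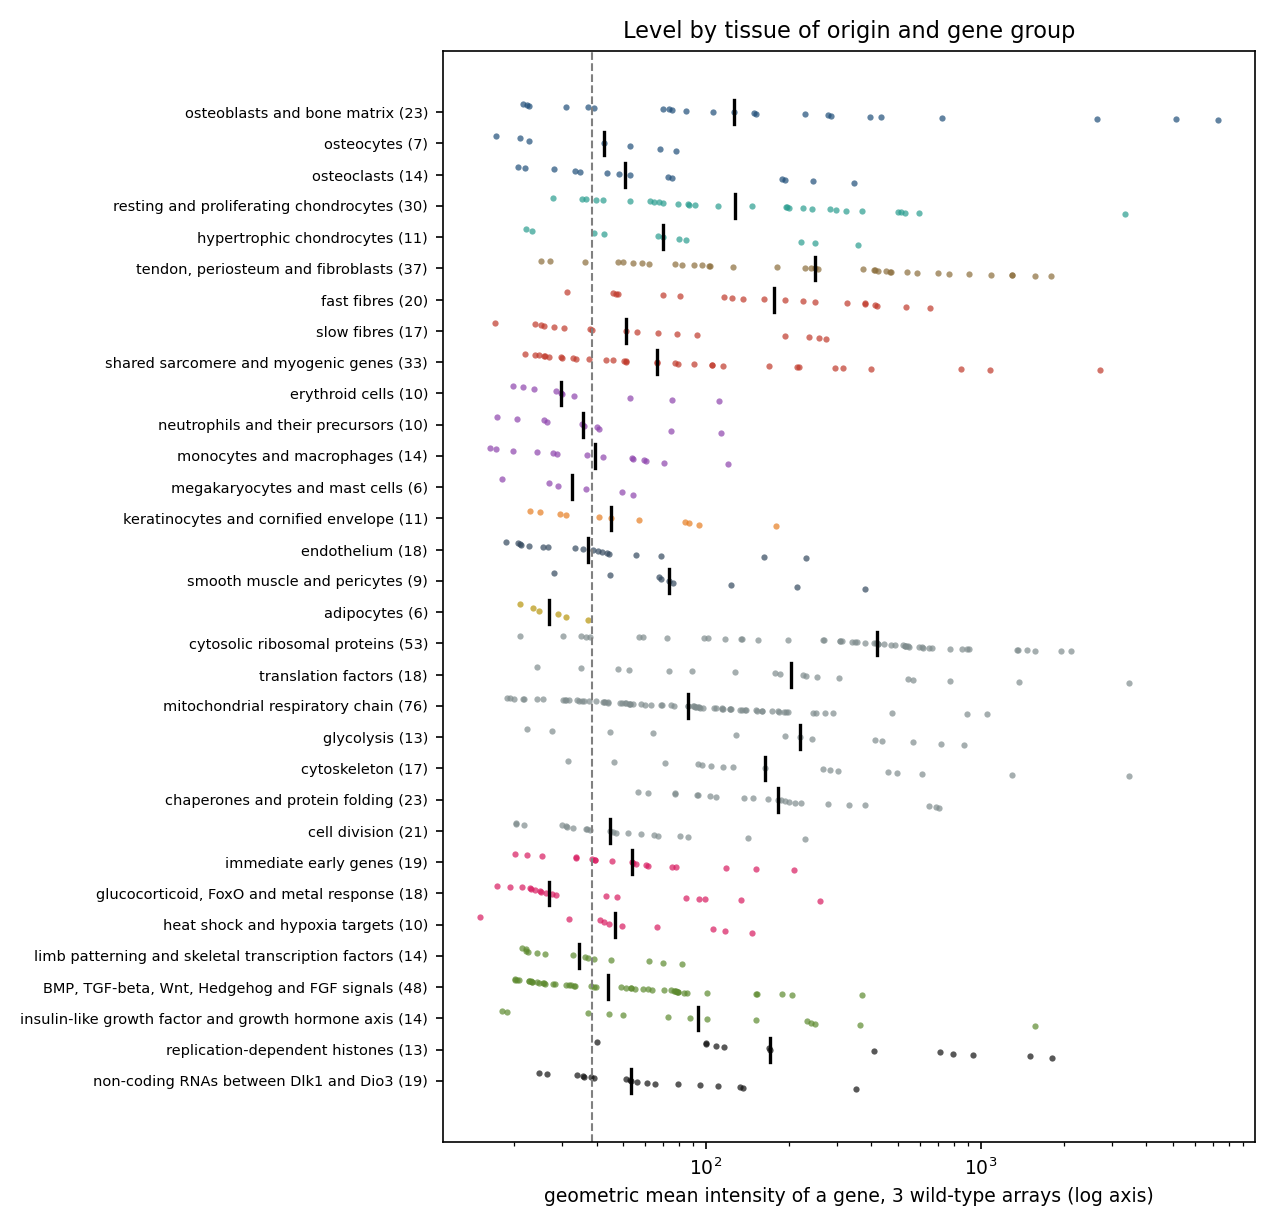
Geometric mean intensity of each measured gene (log axis) by gene group, with the number measured in parentheses. Each point is a gene, each black bar the group's median, and the dashed line the median of all named genes, 38.4. Ribosomal proteins and connective tissue genes lie furthest right, and erythroid and adipocyte genes lie mostly left of the line.

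Genes of osteoblasts and bone matrix had a median of 126 over 23 measured members of 31 listed, and 18 lay above the median of all named genes. After the type I collagens and Sparc came Postn, periostin of the periosteum, at 602, 902 and 703. Ibsp, bone sialoprotein, which nucleates mineral, was at 259, 574 and 415. The structural proteins of the matrix thus led the list. On the deposited values replicate 1 was the lowest array for these genes, as it was for the array median. Relative to the array median Col1a1 and Col1a2 were lowest on replicate 3, while Sparc was lowest on replicate 1. Enzymes of mineralization were dimmer. Alpl, the tissue-nonspecific alkaline phosphatase, was at 55.7, 71.3 and 85.7. Phospho1, a phosphatase of matrix vesicles, was at 57.7, 64.5 and 115. Transcription factors were dimmer still. Dlx5, a homeobox factor of bone, was at 39.5, 36.7 and 41.4. Sp7, the osterix factor required for osteoblasts, was at 26.4, 30.1 and 65.4, with replicate 3 apart from the others. Dlx3, a related homeobox gene, was the dimmest member and the nearest to the floor of 20, at 25.6, 17.1 and 23.1.

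Osteocyte genes were dimmer, with a median of 42.7 over 7 measured of 12 listed. Cd44, a hyaluronan receptor made by many cells, was at 52.5, 116 and 77.7. Ank, a pyrophosphate transporter, was at 53.4, 70.3 and 83.3. Pdpn, podoplanin of early osteocytes, was at 47.01, 59.6 and 53.2. These 3 led the list and replicate 1 was lowest in each on the deposited values. Dmp1, a matrix phosphoprotein of osteocytes, was at 24.8, 61.7 and 51.03. Sost, the Wnt inhibitor sclerostin of mature osteocytes, was at 23.6, 16.7 and 23.6. Capg, an actin-capping protein, was the dimmest at 19.2, 14.8 and 18.1. The last 2 genes lay near or under the floor, where background weighs most.

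Osteoclast genes had a median of 50.6 over 14 measured of 20 listed, and the resorption enzymes led. Mmp9, a gelatinase, was at 262, 359 and 444. Acp5, tartrate-resistant acid phosphatase, was at 196, 237 and 319. Atp6v1b2, a subunit of the proton pump, was at 131, 228 and 245. Ctsk, the collagen-degrading cathepsin K, stood beside these at 117, 238 and 244. In all 4, replicate 3 was highest and replicate 1 lowest on the deposited values. Ocstamp, a fusion protein of osteoclasts, was the dimmest at 18.8, 23.02 and 20.4. Car2, carbonic anhydrase II, which acidifies the resorption space and is also abundant in red cells, was at 79.4, 23.1 and 61.7. It was lowest on replicate 2, as the erythroid genes were.

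Genes of resting and proliferating chondrocytes had a median of 128 over 30 measured of 40 listed, and 27 lay above the median of all named genes. Behind Col2a1 came collagens of the same fibrils, type IX on their surface and type XI within them. Col9a1 was at 454, 715 and 646. Col11a1 was at 381, 696 and 556. Acan, the large proteoglycan aggrecan, was at 332, 646 and 634. In these genes replicate 1 was lowest on the deposited values and the other arrays were closer to each other. Further matrix genes stayed bright, with Ucma at a mean of 505, Comp at 375 and Matn1 at 299.5. Transcription factors were far dimmer. Sox9, the master regulator of chondrocytes, was at 53.4, 90.5 and 70.1. Its partner Sox6 was the dimmest member at 22.02, 34.4 and 28.5.

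Genes of hypertrophic chondrocytes, the cells that precede bone formation, had a median of 69.8 over 11 measured of 13 listed. Col10a1, the collagen typical of these cells, was at 243, 405 and 465. Clec3a, a cartilage lectin, was at 156, 303 and 330.1. Mmp13, the collagenase that opens cartilage to bone formation, was at 136, 269 and 295. In all 3 genes replicate 1 was lowest by more than the array medians differed. Ihh, the hedgehog signal of prehypertrophic cells, was at 42.3, 31.5 and 45.4. Runx3, a transcription factor, was the dimmest at 24.8, 19.1 and 22.9.

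Genes of tendon, periosteum and fibroblasts stood highest of the tissue lists, and 34 of 37 lay above the median of all named genes. Besides Col3a1, Igf2, Vim and Bgn, Fn1, fibronectin, was at 781, 1190.3 and 1388. Dlk1, an inhibitor of adipocyte differentiation made by fetal mesenchyme, was at 767, 942 and 1025. The 3 chains of type VI collagen lay between 428 and 975. Several tendon and dermis genes were lowest on replicate 3. Dcn, the proteoglycan decorin, was at 486, 588 and 359.8. Tnmd, tenomodulin of tendon, was at 273, 296 and 205. Of the 37, 19 were lowest on replicate 3 relative to the array median (against 26.1% of all named genes) and 21 were highest on replicate 2 (against 35.0%). Scx, the tendon transcription factor scleraxis, was the other way, at 43.3, 36.6 and 68.7. Prrx2 was the dimmest member at 31.4, 21.5 and 23.4.

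Muscle genes were bright in RNA labelled as bone. The 20 measured fast-fibre genes of 27 listed had a median of 177, and 19 lay above the median of all named genes. Ckm, muscle creatine kinase, was at 438, 716 and 880.4. Atp2a1, the calcium pump of fast fibres, was at 361, 521 and 810.4. Tnnt3, fast troponin T, was at 301, 452 and 544. Tnni2, fast troponin I and the gene mutated in the other group of the series, was in the middle of the list at 102, 165 and 258 (mean 175 ± 78.6, SD, n = 3), rank 418. Ampd1, a deaminase of fast fibres, was the dimmest member at 21.2, 41.3 and 35.01. The 17 slow-fibre genes had a median of 51.1. They ran from Fhl1, Tpm3 and Atp2a2, at means of 294, 265 and 249, down to Myl3 at 14.2, 15.3 and 22.7. For Tpm3 the brightest of 4 probe sets was 3.88-fold the next. Levels of different genes are not per length, so the gap between the fibre types is one of array signal.

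Among 33 genes shared by all muscle, with a median of 66.2, developmental forms were prominent. Actc1, cardiac actin, which fetal skeletal muscle also makes, was at 727, 1465 and 1174. Myh8, the perinatal myosin heavy chain, was at 553, 921 and 1195. Myh3, the embryonic one, was at 117, 265 and 333. Regulators of myogenesis were dim. Myod1 was at 31.2, 31.1 and 55.1. Myog, myogenin, was at 29.2, 26.6 and 34.8. Cdh15, a cadherin of myoblasts, was the dimmest at 24.2, 19.7 and 22.1.

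Marrow genes were low. Of 33 erythroid genes listed, 10 were measured, with a median of 29.8. Slc4a1, the band 3 anion exchanger of red cells, was at 172, 50.02 and 162. Alas2, the first enzyme of heme synthesis in red cells, was at 75.3, 62.4 and 89.8. Blvrb came next at a mean of 53.4 and Fech, the last enzyme of heme synthesis, was the dimmest at 19.97. Globin genes are not analysed here. Neutrophil genes had a median of 35.7 over 10 measured of 28 listed. Anxa1, which is also made outside neutrophils, was at 129.9, 144 and 77.1. Lcn2, lipocalin 2, was at 89.2, 47.6 and 98.5. Ngp, a granule protein, was at 42.9, 26.7 and 58.8. Mpo, myeloperoxidase, was at 47.5, 23.2 and 42.3, and S100a8 was the dimmest at 16.02, 12.6 and 26.2.

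Monocyte and macrophage genes had a median of 39.3 over 14 measured of 34 listed. Laptm5, a lysosomal protein of blood cells, was at 93.5, 129 and 146. Csf1r, the receptor for macrophage growth factor, was at 62.4, 72.05 and 76.9. Lyz2, lysozyme, was at 52.6, 43.9 and 95.9. Cd53 was the dimmest at 13.9, 14.8 and 21.5. Of 24 lymphocyte genes 2 were measured, Ebf1 and Thy1, both also made by mesenchymal cells. Among 6 megakaryocyte and mast cell genes, Pf4, platelet factor 4, had a mean of 54.8. Tpsb2 and Cpa3, proteases of mast cells, had means of 49.8 and 39.7, and Kit was the dimmest at 18.2.

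Endothelial genes had a median of 37.2 over 18 genes. Aqp1, a water channel of capillaries, was at 212, 230.1 and 251. Cd34 was at 113, 218 and 172. Eng, endoglin, was at 51.1, 82.96 and 77.1. Ptprb, a phosphatase of vessels, was the dimmest with a mean of 18.9, and 9 of 18 lay above the median of all named genes. Smooth muscle and pericyte genes were at 73.3 over 9 genes. They were led by Acta2, smooth muscle actin, at 296, 396 and 459.7, with Des and Cspg4 next and Mylk dimmest at a mean of 28.2. Des, desmin, is also in the list of genes shared by all muscle, so its level is not that of vessels alone. The 6 adipocyte genes all lay below the median of all named genes. Scd1, Dgat2 and Cd36 had means of 39.9, 31.1 and 29.9, and Fabp4 was last. 

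Genes of functions common to all cells were bright as a class. The 53 cytosolic ribosomal protein genes had a median of 418, and 22 were among the brightest 100, although Rpl30 was at a mean of 21.6. The list of translation factors, which also holds genes with other roles, was at 205 over 18 genes. Tpt1 (mean 790.2) came after the elongation factors, and Nap1l1, a nucleosome assembly gene, was last. Glycolysis was at 220 over 13 genes, led by Aldoa (mean 894), Hk1 and Ldha (mean 579), with Pfkp last. Hk1 holds this place by 1 of its 2 probe sets, at 716 against 30.8 for the other. Eno3 and Pfkm are also in the fast-fibre list, so the glycolysis median includes muscle genes. The 23 chaperones, all above the median of all named genes, were at 183. They were led by P4hb (mean 709), a subunit of the enzyme that hydroxylates collagen, then Hspa8 and Ppia, with Cct6a last. The cytoskeleton was at 165 over 17 genes, with Tuba1a (mean 615) after Actb and Vim, and Myl12a last.

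The mitochondrial respiratory chain had a median of 86.1 over 76 genes, led by the ATP synthase subunits Atp5b (mean 1083), Atp5a1 and Atp5c1, with Uqcrfs1 last. Cell division genes were dimmer, at 44.8 over 21. Ccnd2, a D-type cyclin, was at 167, 287 and 253. Pcna, the sliding clamp of replication, was at 120.5, 126 and 191. Mcm7, of the replicative helicase, was at 90.5, 59.5 and 119. Top2a was last at a mean of 20.4.

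The lists of signals and of patterning factors had medians of 44.1 and 34.6, near that of all named genes, 38.4. Of 48 BMP, TGF-beta, Wnt, Hedgehog and FGF genes, 26 lay above the median of all named genes. The 3 brightest were a transducer and 2 surface proteins. Ctnnb1, β-catenin, was at 274, 429.9 and 432. Gas1, a surface protein that binds Hedgehog, was at 186, 255 and 184. Fgfr1, an FGF receptor, was at 145, 238 and 199. Among secreted ligands, means were 79.6 for Tgfb3, 33.4 for Fgf18 and 26.1 for Bmp4. Receptors and transducers also reached low levels, with Tgfbr1, a TGF-beta receptor, at a mean of 24.9 and Smad1, a BMP transducer, at 23.9. The BMP-binding Bmper was last. Among 14 limb and skeletal transcription factors, Prrx1, of limb mesenchyme, led at 68.4, 93.5 and 84.6, followed by Sox9 and Twist1. Hoxd13, which patterns the digits, was dimmest at a mean of 21.8. In the growth factor axis Igf2 was followed by the binding proteins Igfbp4 (mean 366) and Igfbp5. Igf1 was at 58.3, 75.1 and 87.9, and Ghr, the growth hormone receptor, was dimmest at a mean of 18.5.

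Promoters were compared by level, since the ranking did not use sequence. RefSeq promoters of assembly GRCm38.p6, from 250 bases before to 50 after the first start listed, were matched for 4632 named genes, 72 of them among the brightest 100. The letters TATAAA, on either strand, were in 23.6% of the promoters of the brightest 100 (17 of 72, 95% Wilson interval 15.3% to 34.6%, which covers counting error only), 20.1% of those of the brightest 300 and 7.34% of all named genes. The share over all 27025 promoters of the table, which hold many genes not named here, was 14.2%. On the sense strand between 45 and 20 bases before the start, TATAAA was in 6.94% of the brightest 100 and 1.47% of all named genes. The letters GGGCGG, the core of a GC box, were in 52.8% of the brightest 100, in 70.1% of all named genes and in 35.9% of the whole table. CCAAT on either strand hardly separated them, at 37.5%, 38.4% and 37.9%. The 72 promoters include that of Baiap2l1, with GGGCGG and CCAAT but no TATAAA, although its probe set should not be read as that gene. A match is a description of letters and not a binding site, and RefSeq starts can be imprecise.

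A bright filament gene and the hypertrophic collagen gene show the TATAAA letters at the usual distance from the start. The 120 bases before the start are given 5′ to 3′ on the gene's strand, with TATAAA and CCAAT (or its complement ATTGG) in capitals. They are those of Vim (chr2:13574191-13574310, plus strand) and Col10a1 (chr10:34389861-34389980, plus strand), and in both TATAAA begins 32 bases before the start.
Vim: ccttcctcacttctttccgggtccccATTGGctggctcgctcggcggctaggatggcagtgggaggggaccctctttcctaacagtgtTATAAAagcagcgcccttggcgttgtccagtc
Col10a1: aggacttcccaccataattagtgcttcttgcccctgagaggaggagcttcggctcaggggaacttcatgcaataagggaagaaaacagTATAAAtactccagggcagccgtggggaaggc

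How far the arrays differed was measured by the SD of log2 intensity over the 3 arrays and by the fold between the highest and the lowest array. With 3 arrays an SD is loosely known, since its 95% interval runs from 0.521 to 6.28 times the value under normal errors. The median SD was 0.28, and it was similar for dim and bright genes, from 0.26 in the dimmest 25% to 0.32 in the brightest 25%. A gene's highest array was over 2-fold its lowest in 623 genes, 10.8% of all named genes, on the deposited values. Replicate 1 was the lowest array in 551 of these. With each level taken relative to the array's median, 296 genes or 5.12% were past 2-fold, and the highest array was replicate 1 in 128, replicate 2 in 103 and replicate 3 in 65. The count on deposited values was 81 without replicate 1, 294 without replicate 2 and 453 without replicate 3. Past 4-fold there were 24 genes on deposited values (0.415%) and 25 relative to the array median (0.433%). No test was made, since the 3 arrays form a single group.

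**Figure D3:**
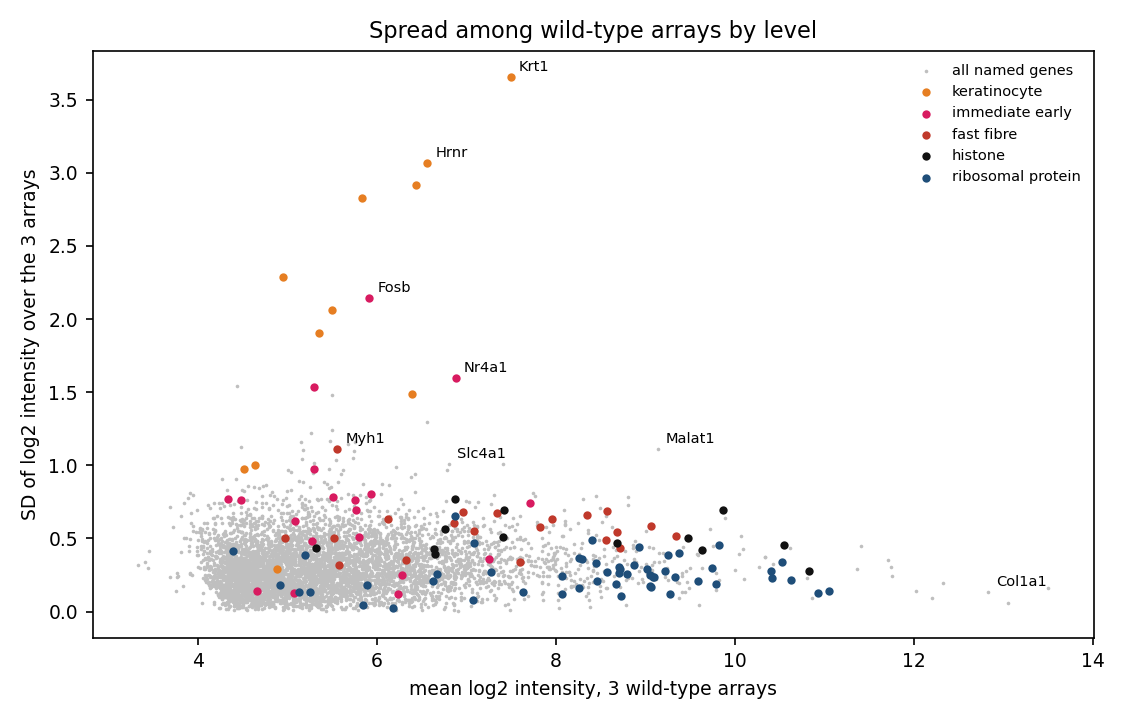
SD of log2 intensity over the 3 arrays against mean log2 intensity, 1 point per named gene, with genes of 5 groups coloured. Keratinocyte genes and the immediate early genes Fosb and Nr4a1 stand far above the cloud, whose median SD is 0.28, and ribosomal protein genes lie within it.

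Keratinocyte genes had the widest spread of the lists. Krt1, a keratin of the upper epidermis, was at 960.2 and 623 on replicates 1 and 2 and at 9.79 on replicate 3. Its partner Krt10 was at 333, 229 and 8.47. Hrnr, hornerin of the cornified layer, was at 276, 372 and 8.14. Replicates 1 and 2 were thus bright for these genes and replicate 3 lay under the floor of 20, with folds between arrays of 98.04, 39.3 and 45.7.

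Genes of the basal and cornified layers were also lowest on replicate 3. Krt5, a keratin of the basal layer, was at 199, 156 and 5.94. Krt14, its partner, was at 112, 66.5 and 9.21. Lor, the envelope protein loricrin, was at 90.5, 117 and 8.73. Krtdap, a secreted protein of differentiating keratinocytes, was at 103, 55.6 and 5.12, so replicate 3 was again under the floor. Asprv1, a skin protease, was at 181, 127 and 26.1. Asprv1 and Fabp5 were the members that reached 20 on replicate 3. All 11 measured members of 51 listed were lowest on replicate 3 (against 26.1% of all named genes), and 10 of 11 were past 2-fold relative to the array median, where 5.12% of all named genes were. The dimmest, Ly6d, was at 42.4, 25.3 and 11.1, and Lgals7 had a fold relative to the array median of 4.57. The summed intensity of the list was 2373 on replicate 1, 1836 on replicate 2 and 127 on replicate 3.

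The ranks of these genes hence describe no single array, and Krt1 ranked 364 by its mean. Of 26 hair and pigment genes 2 were measured. Krt33b, a hair keratin, was at 58.6, 41.2 and 24.7. Lce1j, a cornified envelope gene outside the list and named after its values were seen, was at 98.4, 52.3 and 17.996. Whether skin was carried along with some of the samples was not tested.

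Immediate early genes, which are transcribed within minutes of a stimulus, stood out on replicate 2. Fosb, a partner in the AP-1 factor, was at 28.2, 334 and 23.3, a fold of 14.4. Nr4a1, an orphan nuclear receptor, was at 62.96, 423 and 61.3. Atf3, a stress-induced factor, was at 19.9, 134 and 22.8. In all 3, replicates 1 and 3 were close and replicate 2 lay far above them.

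The further members of the list given here showed smaller differences. Dusp1, a phosphatase that switches off MAP kinases, was the brightest member at 137, 370.2 and 182. Jund, an AP-1 subunit, was at 124, 200.7 and 142. Jun was at 40.6, 116 and 49.1. Fos itself was less spread than Fosb, at 35.7, 55.7 and 28.8. The list was not uniform. Egr1, an early zinc finger factor, was at 64.4, 79.5 and 90.9. Its relative Egr3 was at 37.1, 31.1 and 32.8, and Btg2, the dimmest, had a mean of 22.1. Relative to the array median, 15 of 19 members were highest on replicate 2, as were 35.0% of all named genes, and 12 of 19 were past 2-fold, as were 5.12%.

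Other inducible genes were also high on replicate 2. Errfi1, a feedback inhibitor of the EGF receptor, was at 40.7, 242 and 85.4. Per1, a clock gene that glucocorticoids induce, was at 29.4, 87.2 and 31.9. Zbtb16, a zinc finger factor, was at 14.5, 39.6 and 12.5. In the list of glucocorticoid, FoxO and metal responses, 12 of 18 members were highest on replicate 2 relative to the array median, against 35.0% of all named genes. Its brightest members had other orders. Txnip, an inhibitor of glucose uptake, was at 216, 271 and 301. The metallothionein Mt2 was at 159.6, 155 and 97.99, lowest on replicate 3. Mt1 had a mean of 99.1, and Pik3ip1 was the dimmest at 17.5.

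Of 10 heat shock and hypoxia genes, 9 were highest on replicate 2 relative to the array median, against 35.0% of all named genes. P4ha1, a collagen prolyl hydroxylase, was at 93.6, 209.8 and 162. Slc2a1, a glucose transporter, was at 87.7, 184 and 99.9. Hspb1, a small heat shock protein, was at 76.5, 127 and 122. These 3 were the brightest of the list and replicate 1 was the lowest array in each on the deposited values. Bnip3, a mitophagy gene induced by low oxygen, was at 19.2, 95.9 and 47.5, a fold of 5.002. Egln3, the dimmest, was at 7.93, 22.8 and 18.7, near or under the floor.

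Muscle genes were highest on replicate 3. Relative to the array median the 20 fast-fibre genes were on average at 1.71, 2.03 and 2.48 on the log2 scale on replicates 1, 2 and 3, and 19 of 20 were highest on replicate 3, where 31.3% of all named genes were. Their summed intensity was 3088, 4941 and 6581. The 17 slow-fibre genes were at 0.31, 0.55 and 0.99, with 14 highest on replicate 3, against the same 31.3%. The 33 shared genes were at 0.85, 1.09 and 1.46, with 28, again against 31.3%. All 3 groups thus had the same array at the top and replicate 1 at the bottom. Myh1, a myosin of adult fast fibres, was at 24.4, 38.8 and 109.6, the largest fold of the fast-fibre genes at 4.49. Ttn, the giant spring protein titin, was at 77.9, 205 and 303. Neb, the thin-filament ruler nebulin, was at 33.8, 78.6 and 109.8. Tnni2 itself differed 2.54-fold between arrays, and 2.03-fold relative to the array median. How much muscle each sample carried was not tested.

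The respiratory chain was also highest on replicate 3, in 57 of 76 genes (against 31.3% of all named genes) relative to the array median, but it was lowest on replicate 2, in 50 of 76 (against 32.2% of all named genes). List means were 1.02, 0.87 and 1.25 on the log2 scale. Past 2-fold relative to the array median were 3 of the 76. Cox7b, a subunit of cytochrome oxidase, was at 37.8, 32.2 and 123. Uqcr11, of complex III, was at 37.8, 19.5 and 43.4, and Ndufa4l2, a relative of another subunit, was at 35.7, 99.7 and 41.99. The last 2 were named after their values were seen.

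Blood cell genes were lowest on replicate 2. Relative to the array median, neutrophil genes were on average at 0.34, -0.72 and 0.12 on the log2 scale. On that scale 9 of 10 were lowest on replicate 2 (against 32.2% of all named genes), and all 10 were past 2-fold (against 5.12%). On the deposited values 8 were past 2-fold, against 10.8% of all named genes. Of the 10, 4 lay under the floor of 20 on at least 1 array, where folds depend on background. Prtn3, a protease of granulocyte precursors, was at 34.7, 12.7 and 19.7. Erythroid genes were at 0.23, -0.57 and 0.02 relative to the array median, with 9 of 10 lowest on replicate 2, against 32.2%. Slc4a1 was past 2-fold, as was Rhd, a blood group antigen, at 42.96, 13.1 and 23.4, while the other 8 were not. Monocyte genes differed less, at 0.01, -0.20 and 0.13. Mast cell genes had another order. Cpa3 was at 35.3, 60.8 and 22.9. Hdc, the enzyme that makes histamine, was at 29.1, 49.7 and 16.7. Both were lowest on replicate 3, where the keratinocyte genes were lowest too.

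**Figure D4:**
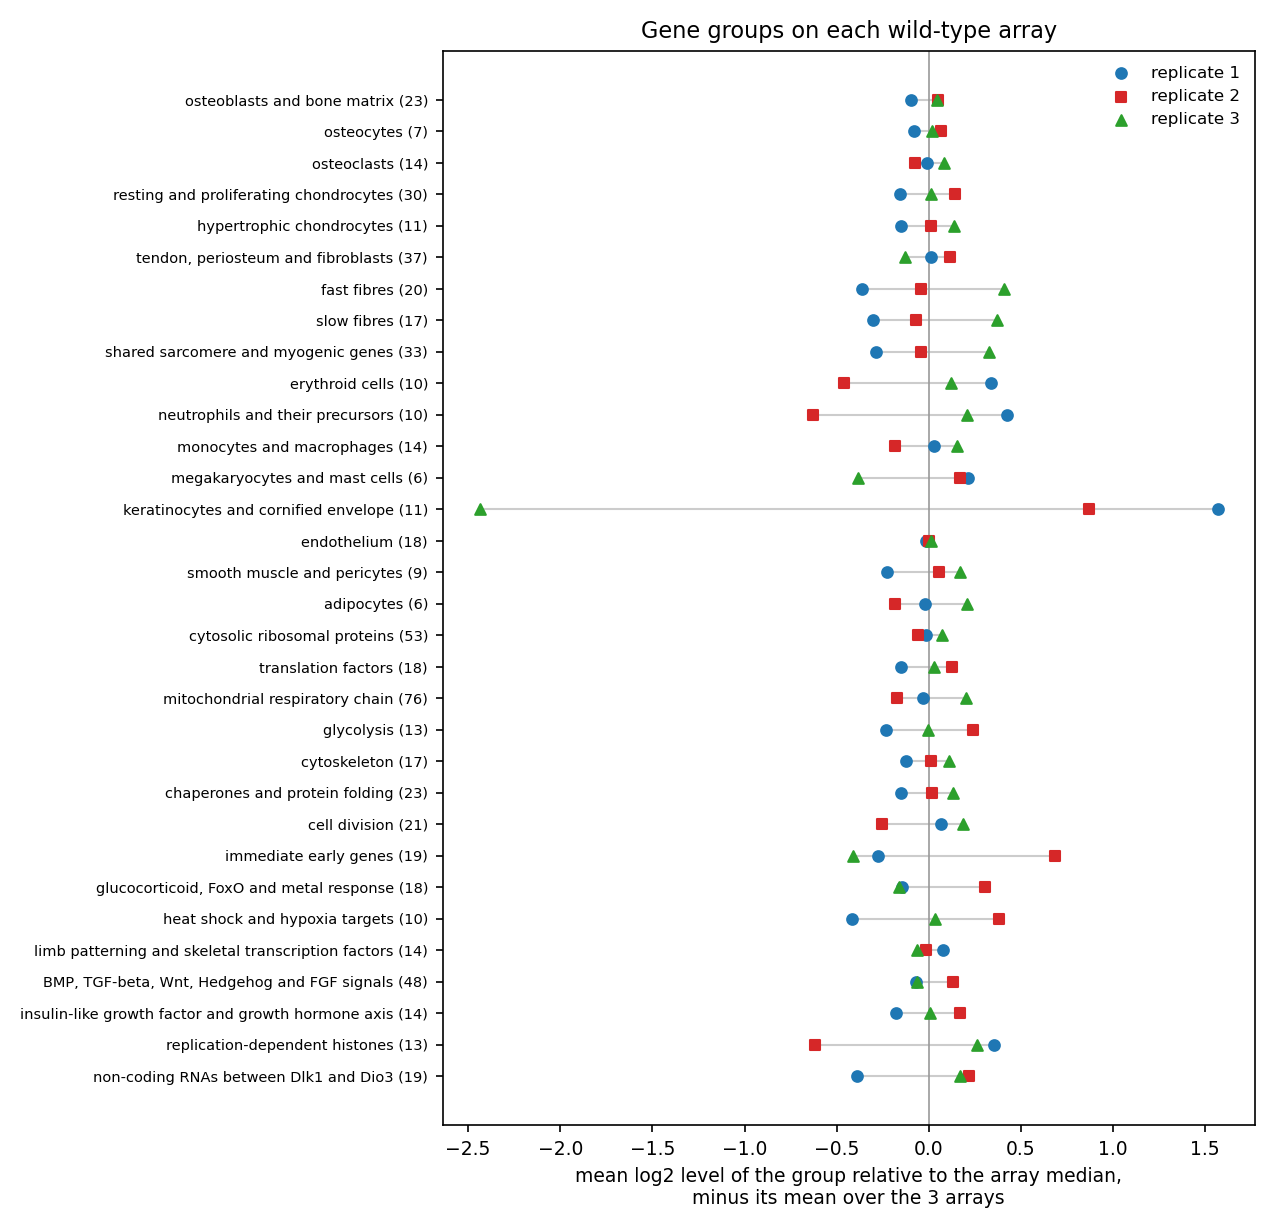
Mean log2 level of each gene group relative to the array median, drawn as the difference from the group's own mean over the 3 wild-type arrays, with 1 symbol per array. Keratinocyte genes are far left on replicate 3, immediate early genes far right on replicate 2, the muscle groups right on replicate 3, and bone, cartilage and endothelial groups close to 0 on all arrays.

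Means of the bone and cartilage lists differed by at most 0.30 on the log2 scale between arrays. Relative to the array median, osteoblast and bone matrix genes were at 2.0, 2.14 and 2.14 on the log2 scale, chondrocyte genes at 1.74, 2.04 and 1.91, hypertrophic genes at 0.83, 1.0 and 1.12 and osteoclast genes at 0.75, 0.69 and 0.84. Endothelial genes had the smallest range of the 30 lists, at 0.01, 0.03 and 0.04. This place was not kept when an array was left out. Without replicate 1 the range was 0.0043 for osteoblast genes and 0.0093 for endothelial genes. Without replicate 2 it was 0.0086 for the BMP, TGF-beta, Wnt, Hedgehog and FGF genes and 0.031 for endothelial genes. Past 2-fold were 1 of 23 osteoblast genes, 1 of 30 chondrocyte genes and 2 of 14 osteoclast genes, where 5.12% of all named genes were. The chondrocyte genes were highest on replicate 2 in 23 of 30, against 35.0% of all named genes. In 9 of the 30 lists the highest array exceeded the lowest by more than 0.5 on the log2 scale.

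Replication-dependent histone genes, a group added after their values were seen, were lowest on replicate 2. H1f5, a linker histone, was at 1719, 1552 and 2247. H4c4, a core histone, was at 1705, 1048 and 1902. H1f1, another linker histone, was at 1122, 543 and 1348. In this group 12 of 13 were lowest on replicate 2 relative to the array median (against 32.2% of all named genes), and the group was at 3.24, 2.27 and 3.15 on the log2 scale. The exception was H1f2, at 73.7, 125 and 109.6. Core histone genes have near-identical copies, so single members such as H4c3, the dimmest at a mean of 41.2, are uncertain. Cell division genes, which are active in dividing cells as the histones are, were at 0.34, 0.02 and 0.46, with 15 of 21 lowest on replicate 2, against the same 32.2%.

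Promoters of both groups shared letters that the ranking did not use. CCAAT on either strand was in 16 of 17 promoters of the cell division genes (94.1%) and 11 of 12 of the histone genes (91.7%), against 38.4% of all named genes. TATAAA was in 7 of 12 histone promoters (58.3%) and in 0 of 17 of the cell division genes. Of 8 keratinocyte promoters 4 held TATAAA, each on the sense strand between 45 and 20 bases before the start, against 1.47% of all named genes in that window. 2 promoters of each group are shown, because they hold these letters close to the start, with the same capitals and length as above. They are those of H4c4 (chr13:23581448-23581567, plus strand), H1f5 (chr13:21780626-21780745, minus strand), Cdk1 (chr10:69352913-69353032, minus strand), Ccnb2 (chr9:70421555-70421674, minus strand), Krt10 (chr11:99389365-99389484, minus strand) and Lor (chr3:92083143-92083262, minus strand).
H4c4: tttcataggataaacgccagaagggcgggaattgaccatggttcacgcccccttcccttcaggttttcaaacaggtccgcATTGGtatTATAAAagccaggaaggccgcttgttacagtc
H1f5: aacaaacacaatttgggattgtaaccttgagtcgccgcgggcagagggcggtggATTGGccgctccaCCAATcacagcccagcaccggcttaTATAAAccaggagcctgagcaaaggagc
Cdk1: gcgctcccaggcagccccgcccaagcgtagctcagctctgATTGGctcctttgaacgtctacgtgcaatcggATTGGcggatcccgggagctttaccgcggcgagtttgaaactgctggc
Ccnb2: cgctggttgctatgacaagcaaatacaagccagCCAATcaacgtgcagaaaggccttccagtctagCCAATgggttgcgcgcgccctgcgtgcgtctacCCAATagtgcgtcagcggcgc
Krt10: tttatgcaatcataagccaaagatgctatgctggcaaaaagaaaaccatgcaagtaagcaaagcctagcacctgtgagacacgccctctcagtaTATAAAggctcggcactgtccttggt
Lor: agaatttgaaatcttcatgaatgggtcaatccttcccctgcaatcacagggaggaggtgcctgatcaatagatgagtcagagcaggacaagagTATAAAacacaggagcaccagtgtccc
Cdk1 is the kinase that drives mitosis and Ccnb2 a B-type cyclin that binds it. Ccnb2 holds 3 copies of CCAAT in these 120 bases and Cdk1 holds 2, while H4c4 and H1f5 join a CCAAT match to a TATAAA that begins 32 and 28 bases before the start. In Krt10 and Lor TATAAA begins 26 and 27 bases before it.

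Non-coding RNAs of the imprinted region between Dlk1 and Dio3, a second group added after values were seen, were mostly lower on replicate 1. This region on chromosome 12 makes the long RNA Meg3 and a large cluster of miRNAs from the maternal copy. Meg3 was at 187, 443 and 519.6. Mir382 was at 20.5, 87.9 and 74.5. Mir329 was at 22.3, 83.9 and 81.9. Mir487b, at 14.9, 59.8 and 52.5, and Mir323, at 15.6, 57.1 and 51.8, were under the floor on replicate 1. The other arrays were over 3-fold above replicate 1 in these 4 miRNA genes and close to each other.

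Of the 19 genes 13 were lowest on replicate 1 relative to the array median, where 41.6% of all named genes were, and 9 were past 2-fold, as were 5.12%. Others went the opposite way, with Mir341 at 161, 115 and 128 and Mir666 at 122, 83.2 and 84.2. Mir134 at 77.1, 189.7 and 174 was the brightest miRNA gene by its mean after Meg3 in this group, and Mir431 the dimmest at 12.6, 36.1 and 33.5. Over all 45 miRNA genes 20 were past 2-fold (44.4%), against 4.61% of protein-coding genes. A probe set of a miRNA gene cannot tell the hairpin from a longer host transcript, and it does not measure the mature miRNA.

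For each of these 4 miRNA genes 1 mature product is printed, with the seed, bases 2 to 8, in capitals. RefSeq also lists the other arm for Mir382, Mir329 and Mir323, which is not printed. Their RefSeq positions in GRCm38.p6, all on the plus strand, are chr12:109733781-109733802, chr12:109713541-109713562, chr12:109727347-109727367 and chr12:109712558-109712578.
mmu-miR-382-5p: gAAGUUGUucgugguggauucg
mmu-miR-329-3p: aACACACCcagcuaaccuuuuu
mmu-miR-487b-5p: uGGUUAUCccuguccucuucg
mmu-miR-323-3p: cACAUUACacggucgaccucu
No seed was shared between any of the mature miRNAs of the measured genes of this region.

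The remaining genes of large spread divided by array. High on replicate 2 were a calcium-dependent transcription factor, a protease and kinases. Nfatc2, the transcription factor, was at 30.9, 136 and 37.4. Adamts1, the matrix protease, was at 38.6, 151 and 70.3. Sik1, a kinase induced by cyclic AMP, was at 24.7, 94.1 and 51.5. Wee1, a kinase that holds back mitosis, and Wsb1, of a ubiquitin ligase, were highest on replicate 2 at 84.7 and 111. Other genes were low on replicate 1 and close on the other arrays. Malat1, a nuclear long RNA, was at 231, 878 and 878. Insig1, a regulator of sterol synthesis, was at 40.9, 139 and 112. Timp3, a protease inhibitor, was at 40.98, 140.4 and 101, and Tab2, a kinase adaptor, at 23.6, 74.8 and 59.8. Tnfaip6, a hyaluronan-binding protein induced by inflammation and named after its values were seen, belonged to the first set at 19.1, 141 and 34.2.

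Among the brighter genes some hardly varied. Ergic3, a protein of the early secretory path, was at 119, 120.1 and 119, Fis1 of mitochondrial fission at 116, 117 and 117, and Pgd of the pentose phosphate pathway at 73.8, 74.7 and 73.9. Dad1, a subunit of the enzyme that attaches glycans, was at 264, 264 and 257, and Rps19 at 73.5, 70.99 and 72.7. S100a11, Plrg1, Cd82, Serinc2, Psenen, Usp17ld and Mtch2 completed the 12 of smallest SD, all with an SD of log2 between 0.0059 and 0.031. Relative to the array median these genes differed between 1.21- and 1.30-fold, because the dim replicate 1 then counts as high for them.

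Differences between arrays also followed the length of the gene. The 5639 protein-coding genes were divided into 10 classes of equal size by the span of the gene in RefSeq (GRCm38.p6). In the shortest class, genes of at most 4.44 kb, replicate 1 was above the mean of the others by a median of 0.18 on the log2 scale relative to the array median, and replicate 2 was at -0.19. In the longest class, genes of over 120.5 kb, replicate 1 was at -0.27 and replicate 2 at 0.21. Replicate 3 stayed between -0.02 and 0.07 in all classes. Spearman correlations with span over these genes were -0.354, 0.372 and 0.046 for replicates 1 to 3, given as descriptions, since all genes of an array share its RNA and hybridisation.

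Some groups of protein-coding genes are given here beside genes of their span. Most of these groups were named because they differed between these same arrays, so the values are a description. Span as a cause of the differences was not tested. All 13 histone genes lay in the shortest class, and their median on replicate 2 was -0.97 from the mean of the others, against -0.19 over the whole class. The 10 neutrophil genes, 6 of them in the shortest class, were at -1.09, against -0.14 averaged over the classes their members lie in. Immediate early genes, 10 of 19 in the shortest class, were at 0.94 on replicate 2, against -0.13. Keratinocyte genes were at -3.72 on replicate 3, against -0.01, and fast-fibre genes at 0.54, against 0.01. Cytosolic ribosomal protein genes, 36 of 52 in the shortest class, were at -0.06 on replicate 2, against -0.17. Chondrocyte genes were at 0.21 on replicate 2, against 0.03.

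**Figure D5:**
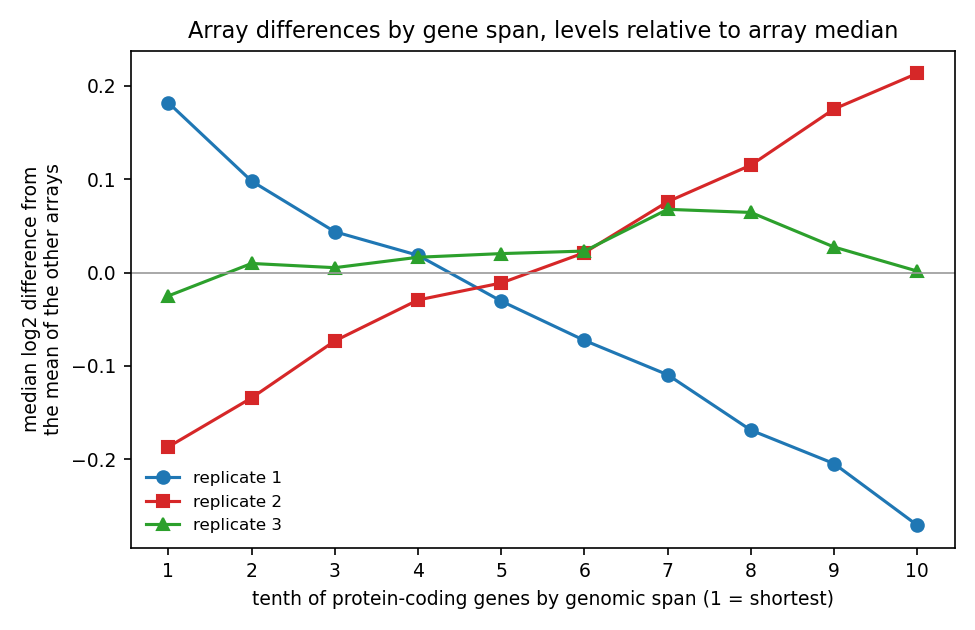
Median log2 difference of each array from the mean of the other wild-type arrays, by class of protein-coding genes ordered by genomic span (1 is the shortest class). Replicate 1 goes from 0.18 to -0.27 and replicate 2 from -0.19 to 0.21, while replicate 3 stays close to 0.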

How the data were processed

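The deposited values are intensities on a linear scale, 1 for each of 8997 probe sets on each array, hybridised as biotin-labelled cDNA to a single-colour Affymetrix whole-transcript array, per the labels. RNA was isolated on RNeasy columns, per the labels' protocols. How the authors corrected background, summarised probes and scaled arrays is not given in the sources used here. The deposited intensities were taken to log2 without another normalization. Gene names come from the platform's annotation, and of the 8997 probe sets 576 had several symbols and 2023 none and were not named. Through Entrez identifiers 5773 of 5780 genes matched RefSeq (GRCm38.p6), which gave spans, promoters and miRNAs.

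Levels are mean ± SD over 3 arrays, and the depth of an array is not defined by counts, so the number of arrays limits precision. Lists were compared between arrays on levels relative to the median of named genes. Values of single genes, and the array named as their highest or lowest, are on the deposited scale unless stated. No p-value was computed, since the arrays form a single group. Genes named by rule are the 25 brightest and, in each list, the 3 brightest, the dimmest and members over 4-fold between arrays. By spread they are the 20 of largest SD among genes at 20 or more on all arrays. The 12 of smallest SD in the brightest 25%, and Tnni2, complete them. Further list members were named for their role by no fixed rule, so statements on these cover only the genes given. Predicted genes, olfactory receptors and small RNAs were skipped in the rankings of spread. Members and lists were chosen with earlier results of these data known, and 2 groups were added after values were seen. Simulated data with independent normal errors were used to try a ranking by SD above that of genes of similar level, which is not given here. The recovery of a list shifted on a single array was also tried. The SDs and folds given here were not tested in this way. Alternatives were quantile normalization, median centring, the mean over probe sets, a floor of 20, the median over arrays, other folds and leaving out each array. Python 3.11.15 with pandas 2.3.3, numpy 2.4.6, scipy 1.17.1 and matplotlib 3.10.9 was used.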

Additional observations from a re-analysis of the deposited data

How the results depend on the processing

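The ranking depended little on the processing. The number of genes at 1000 or more, 31, was between 27 and 35 in every alternative on named genes, but 215 when every probe set was ranked, named or not. Of the brightest 100 genes, 83 were shared with the ranking by the mean of all probe sets of a gene, 99 with quantile normalization and between 95 and 96 when an array was left out. The 623 genes past 2-fold became 309 with quantile normalization, 301 with median centring and 296 relative to the array median, an alternative chosen after seeing the data, 2593 at a fold over 1.5 and 24 at a fold over 4. Leaving out 1 array gave between 81 and 453, where fewer arrays also leave a smaller range. Lists with a range over 0.5 between arrays, 9 of 30, were 5 whichever array was left out. The median of the list of glucocorticoid, FoxO and metal responses, -0.52 from all genes, was 0.029 when only genes at 20 or more on all arrays were kept, a setting that removes its dimmest members. Over all alternatives, 23 values of a list's median level moved by more than the spread, 1 changed sign and 223 did neither. For a list's range between arrays, 57 values moved by over 1.5-fold and 221 did not. Ranges are already relative to the array median, so median centring could not change them. Taking the median over arrays could not change them either. Median centring also left every list's median level as it was. These fixed outcomes are counted among the values that did not move. Signals near 20 are close to background, and their folds depend on a correction that is not known. No paired analysis was possible because the arrays form a single group with no test.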
